A study of Mus musculus with 12 samples.

Results

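Cathepsins are the main proteases of the lysosome, and cystatins are the proteins that hold them in check. Here 8 cathepsin genes (Ctsb, Ctsc, Ctsd, Ctsh, Ctsk, Ctsl, Ctss and Ctsz) and 2 inhibitor genes (Cst3 and Cstb) were followed across cultured mouse lung epithelial cells that lacked different G protein alpha subunits. The members were chosen by name, with earlier results of these data known, as 10 of the 18193 genes on the array. Every probe set annotated to a member gene and to no other was used, which gave 21 of 45037. The shares over all probe sets given below are therefore a description and not a test of the set. A probe set is a group of short probes that together give 1 value on each array. The cells were type II alveolar epithelial cells, which make surfactant, taken from mouse lungs and cultured for 7 days. There were 12 arrays in 4 groups of 3. Cells of the Gna11 group were labelled as knockout for Gna11, and cells of the Gnaq/Gna11 group as knockout for Gnaq and Gna11. Cells of the Gna12 group were labelled as knockout for Gna12, and cells of the Gna12/Gna13 group as knockout for Gna12 and Gna13. The sample titles do not say in which cells of the mouse each deletion was made. Every group thus carried at least 1 deletion, and no wild-type group was among the samples. In all groups the plates were coated with collagen and the medium, made for bronchial epithelium, held keratinocyte growth factor but no hydrocortisone. The sources used here do not give the age or strain of the mice, or any Cre driver or promoter behind the deletions. The labels do not tie the 3 arrays of a group to different animals or cultures. The p-values therefore measure the spread between samples alone, and that spread may be technical.

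Most cathepsins are cysteine proteases of the papain family, made as inactive precursors that mature in the acid of endosomes and lysosomes. Ctsb, Ctsk, Ctsl and Ctss encode endopeptidases of this kind, which cut within a protein chain, Ctsb also trimming ends. Ctsc, Ctsh and Ctsz encode members that mainly trim the ends of proteins, and Ctsd encodes an aspartic protease. Cst3 encodes the secreted inhibitor cystatin C and Cstb the cytosolic inhibitor cystatin B, both directed at the cysteine cathepsins and not at cathepsin D. In the alveolus, cathepsin H is known from type II cells, where it takes part in the maturation of surfactant proteins B and C. Macrophages hold large amounts of cathepsins B, D, L, S and Z, and cathepsin K, best known from osteoclasts, is a strong collagenase and elastase.

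Several measures of the samples bear on these genes. The 9 measured type II markers were all at or above the median level, with the surfactant gene Sftpc between 12.78 and 13.38 on every array. Transcripts of other cells were present too: 19 of 20 pan-leukocyte genes and 14 of 14 macrophage genes were at or above the median level. Lying above that level therefore does not tell these cell types apart. The mean of the 20 pan-leukocyte genes was lowest in the Gna11 group (7.915 to 8.447), tightest in the Gnaq/Gna11 group (8.846 to 8.867), and 8.992 to 9.526 with Gna12 and 8.540 to 9.314 with Gna12 and Gna13 deleted. In such bulk samples fewer cells of a type and less RNA per cell cannot be told apart. The Gapdh controls at the 3' and 5' ends differed most (3' minus 5', a gap that widens as RNA shortens) in Gna11 cells, at 3.463 to 4.031, and by 2.669 to 3.333 on the other 9 arrays. Replicate 2 of the Gna11 cells had the lowest array weight, 0.518. The Y-linked gene Eif2s3y was low (3.072 to 3.555) on the 3 Gnaq/Gna11 arrays and on replicate 2 of each other group. Each deleted gene had 1 probe set in which every knockout array lay below every other array, among 2 for Gna11, 7 for Gnaq, 5 for Gna12 and 7 for Gna13, and the sources used here do not say where those probes lie relative to the deleted parts.

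The promoters of 3 members that were low in Gna11 cells are shown because Ctsk and Ctss lie close together on chromosome 3, with the single gene model Gm40096 between them, and because Ctsd holds a motif known for lysosomal genes. Each runs 5′ to 3′ on the strand of the gene from 250 bases before to 50 bases after the transcript start, from RefSeq on GRCm38.p6, and capitals mark motif matches. RefSeq promoters matched 7 of the 10 members, and those of Ctsb, Ctsh and Cstb were not matched.
Ctsk, chr3:95498960-95499259, plus strand: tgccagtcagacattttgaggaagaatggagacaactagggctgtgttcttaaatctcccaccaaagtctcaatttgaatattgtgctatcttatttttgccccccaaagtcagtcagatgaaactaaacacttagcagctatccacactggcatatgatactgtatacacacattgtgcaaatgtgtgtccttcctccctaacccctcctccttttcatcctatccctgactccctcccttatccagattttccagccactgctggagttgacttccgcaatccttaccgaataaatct
Ctss, chr3:95526536-95526835, plus strand: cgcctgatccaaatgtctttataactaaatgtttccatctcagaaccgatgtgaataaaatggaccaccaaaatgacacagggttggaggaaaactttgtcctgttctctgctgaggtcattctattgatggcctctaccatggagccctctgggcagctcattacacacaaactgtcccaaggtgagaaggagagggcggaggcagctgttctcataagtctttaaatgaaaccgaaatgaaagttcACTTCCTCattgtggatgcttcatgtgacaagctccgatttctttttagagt
Ctsd, chr7:142387778-142388077, minus strand: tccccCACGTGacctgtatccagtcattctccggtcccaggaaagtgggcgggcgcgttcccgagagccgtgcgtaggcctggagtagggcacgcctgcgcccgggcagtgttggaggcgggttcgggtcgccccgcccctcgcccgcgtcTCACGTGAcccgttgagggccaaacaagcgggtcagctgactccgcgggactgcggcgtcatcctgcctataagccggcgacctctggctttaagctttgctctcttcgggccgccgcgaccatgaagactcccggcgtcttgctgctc

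Searched on both strands were the E-box CACGTG, its longer form TCACGTGA, the AP-1 motif TGANTCA and the PU.1 motif GAGGAAGT. The longer E-box, the core of the element through which TFEB and its relatives act on lysosomal genes, contains the shorter one. Ctsd held the longer form once, 99 bases before the start, and a further CACGTG 245 bases before it. Among the 7 members Ctsl alone shared the short form, 236 bases before its start. Of 32851 mouse promoters of the same length, 7.15% held CACGTG and 0.974% held TCACGTGA. In Ctss the PU.1 letters began 2 bases before the start and ran across it, and in Ctsc they began 151 bases before. Of all promoters 3.20% held these letters. The AP-1 letters, present in 7.81% of all promoters, were in none of the 7, and Ctsk held none of the 4 motifs. A match is a description of letters and not a site.

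Across the 4 genotypes most of these genes had their lowest level in the Gna11 cells. Of the 21 probe sets, 16 had their lowest group mean in Gna11 cells, where this was so for 20.8% of all probe sets. For 9 of the 21 all 3 Gna11 arrays lay below the other 9 arrays, against 1.83% of all probe sets. These 9 belong to Ctsb (3 probe sets), Cstb (2 probe sets), Ctsd, Ctsk, Ctss and Ctsz. The 5 without their lowest mean there belong to Ctsc and Ctsh. The highest mean was in Gnaq/Gna11 cells for 11 of the 21, against 24.9% of all probe sets. All values are on the log2 scale of the deposited array summaries, differences are log2 differences ± the standard error of the limma model, and a probe set passed when its adjusted p was under 0.05. Since levels of different probe sets depend on their probes, each level is compared only with the same probe set on other arrays.

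**Figure D1:**
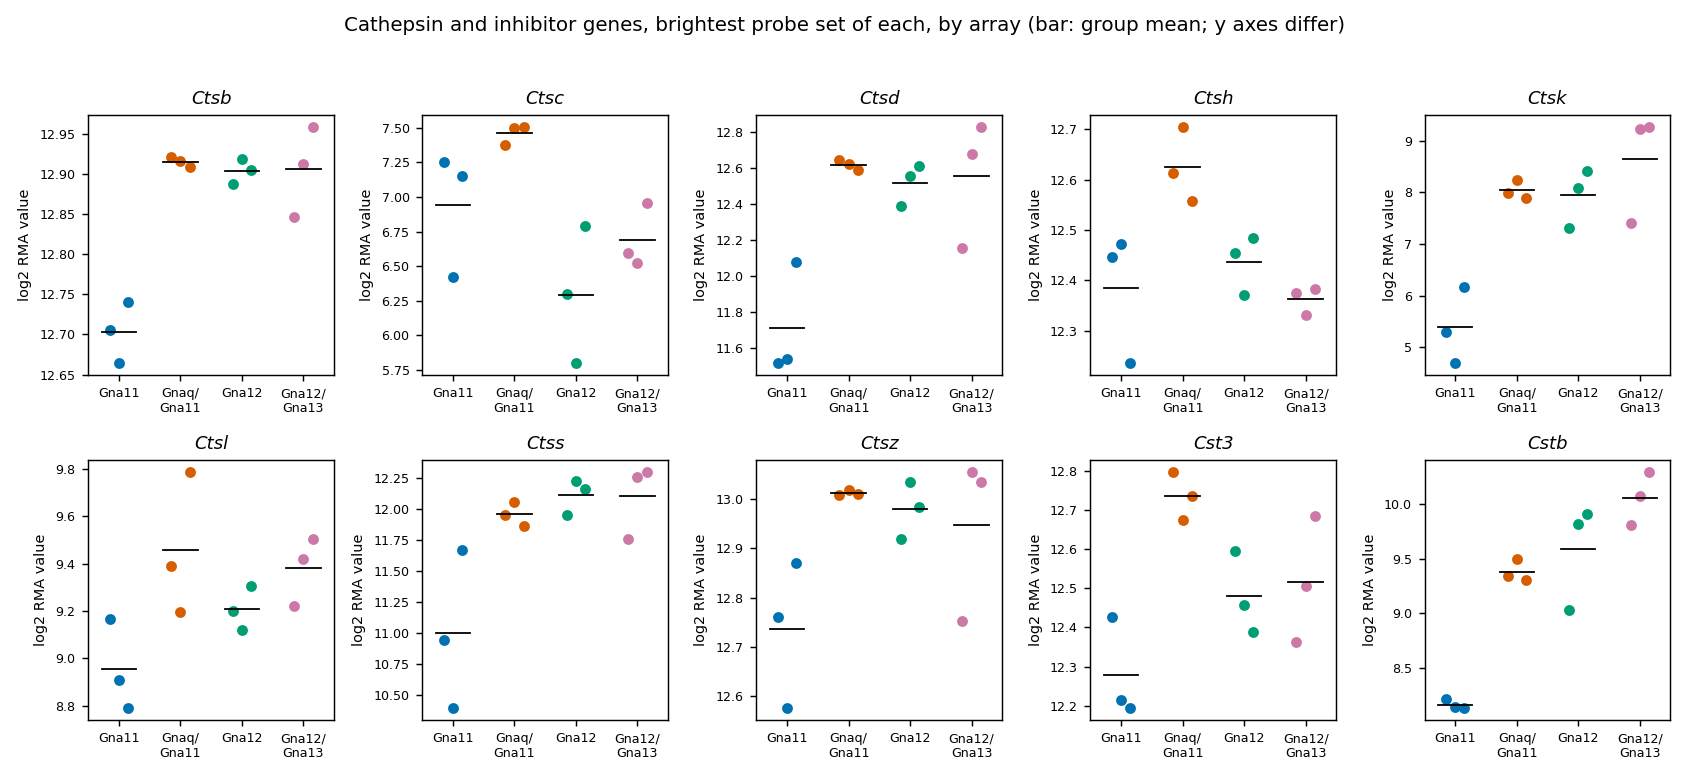
Log2 value of the brightest probe set of each member gene on the 12 arrays, with 3 points per genotype and a bar at the group mean, and with a y axis of its own for each gene. All 3 Gna11 points lie below the other 9 for Ctsb, Ctsd, Ctsk, Ctss and Cstb, while for Ctsh and Ctsc the 3 Gnaq/Gna11 points lie above the other 9.

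The first comparison set Gnaq/Gna11 against Gna11 cells, whose labels differ by the deletion of Gnaq. Their pan-leukocyte means and Gapdh differences did not overlap either. Eif2s3y read 7.114, 3.555 and 7.002 in Gna11 replicates 1, 2 and 3, and 3.325 to 3.538 in Gnaq/Gna11 cells. Cathepsin genes and both inhibitor genes rose: 6 of the 21 probe sets passed, from Ctsb, Ctsd, Ctsk, Ctsz, Cst3 and Cstb, and none fell. Over all probe sets 0.491% passed as higher and 0.269% as lower. In 16 of the 21 the groups were apart, sharing no range of array values, with Gnaq/Gna11 higher, and in none lower, against 7.70% and 9.57% of all probe sets. The median difference was 0.52 over the 21 and -0.04 over all probe sets. Among probe sets at or above the median level it was 0.59 over 20 members and -0.01 over all. Of the 22519 at that level 183 passed as higher and 101 as lower, against 6 and 0 of the 20 members. The groups were apart with Gnaq/Gna11 higher in 2586 and lower in 2232 of them, against 16 and 0 of the 20. At an unadjusted p under 0.05 there were 14 of the 21 and 6084 of all 45037.

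Ctsk had the largest difference among the members. Its single probe set read 5.29, 4.70 and 6.16 in Gna11 replicates 1, 2 and 3, and 7.99, 8.23 and 7.90 in Gnaq/Gna11 replicates 1, 2 and 3. It read 7.31, 8.09 and 8.41 in Gna12 cells, and 7.41, 9.22 and 9.27 in Gna12/Gna13 cells. The Gna11 arrays were thus low throughout, near the median of 5.101 of all probe sets, and the other groups overlapped one another. Ctsk rose from 5.38 ± 0.733 (SD, n = 3) to 8.04 ± 0.175 in Gnaq/Gna11 cells, by 2.65 ± 0.510 (6.30-fold, limma adjusted p = 0.0414). With Eif2s3y as a covariate the difference was 2.61 and did not pass (adjusted p = 0.0910). Adding the pan-leukocyte mean as a covariate left a difference of 1.56, and the difference ran from 1.56 to 3.04 over 21 alternatives, 6 of which it passed (adjusted p from 0.0122 to 0.724).

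Ctsd, the aspartic protease gene, read 11.52, 11.54 and 12.08 in the 3 Gna11 arrays and 12.65, 12.62 and 12.59 in the Gnaq/Gna11 arrays. In Gna12 cells it read 12.39, 12.56 and 12.61, and in Gna12/Gna13 cells 12.16, 12.68 and 12.83. The Gnaq/Gna11 arrays lay close together, and the Gna11 arrays lay below every other array. Ctsd rose by 0.91 ± 0.173 (1.88-fold, limma adjusted p = 0.0402), and by 0.48 without passing once the pan-leukocyte mean was a covariate (adjusted p = 0.711).

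Ctss, whose product processes the invariant chain of MHC class II, was also lowest in Gna11 cells, without passing. Its probe set read 10.94, 10.40 and 11.67 in Gna11 and 11.95, 12.06 and 11.87 in Gnaq/Gna11 cells. It read 11.95, 12.23 and 12.16 in Gna12 and 11.76, 12.26 and 12.30 in Gna12/Gna13 cells. All 3 Gna11 arrays lay below the other 9, but spread over more than 1 unit, and the difference of 0.95 ± 0.256 missed the threshold (limma adjusted p = 0.129). Without Gna11 replicate 3 the Ctss difference was 1.29 and passed (adjusted p = 0.0216), and without Gna11 replicate 2 it was 0.65. For Ctsl, an endopeptidase gene with 2 probe sets, the brighter probe set read 9.17, 8.91 and 8.79 in Gna11 and 9.39, 9.20 and 9.79 in Gnaq/Gna11 cells. Its arrays did not overlap, yet the difference of 0.50 ± 0.175 did not pass (limma adjusted p = 0.241). The second Ctsl probe set stayed at 3.48 to 3.98 on all arrays, below the median level, where a value carries little information.

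The 5 probe sets of Ctsb differed in size and in order. The brightest, 1417490_at, read 12.71, 12.66 and 12.74 in Gna11 and 12.92, 12.92 and 12.91 in Gnaq/Gna11 cells, and 12.85 to 12.96 on the other 6 arrays. It rose by 0.21 ± 0.0371 (1.16-fold, limma adjusted p = 0.0309), a small difference with a smaller spread. Probe set 1417491_at read 8.44, 7.86 and 8.72 in Gna11 and 9.04, 9.47 and 9.23 in Gnaq/Gna11 cells, a difference of 0.91 ± 0.291 that did not pass. It was higher still in Gna12 cells, at 10.19, 10.25 and 9.23. The dim probe set 1417492_at differed by 0.89 ± 0.288 without passing, again with no overlap. The last 2 probe sets overlapped between these groups. Of them, 1448732_at ran from 5.92 to 8.67 within the Gna11 group alone, a wider span than over the other 9 arrays (7.09 to 8.20), and its difference of 0.66 turned to -0.09 without Gna11 replicate 2. Probe set 1444987_at differed by 0.10, and by -1.11 with the Gapdh difference as a covariate. Over the 12 arrays these 2 had a Pearson correlation of -0.314 with each other, while 1417490_at, 1417491_at and 1417492_at correlated with one another at 0.825 to 0.831, given as a description. Within the genotype groups the latter correlations were lower, at 0.360 to 0.614. Probe set 1444987_at correlated with 1417490_at, 1417491_at and 1417492_at at 0.451, 0.715 and 0.682 over the 12 arrays.

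Among the exopeptidase genes Ctsz rose and Ctsh and Ctsc did not pass. Ctsz probe set 1417868_a_at read 11.57, 11.19 and 11.70 in Gna11 cells and 12.26, 12.26 and 12.24 in Gnaq/Gna11 cells. In Gna12 cells it read 12.02, 12.13 and 12.10, and in Gna12/Gna13 cells 11.73, 12.15 and 12.25. It rose by 0.77 ± 0.141 (1.70-fold, limma adjusted p = 0.0355). The 3 Ctsz probe sets varied together, with Pearson correlations of 0.963 to 0.996 over the 12 arrays. The other 2 differed by 0.77 ± 0.155 (adjusted p = 0.0519) and 0.28 ± 0.0851 (adjusted p = 0.183), both without overlap. The smaller difference belongs to the brightest of the 3.

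Ctsh had another order. Its brighter probe set read 12.45, 12.47 and 12.24 in Gna11 and 12.61, 12.70 and 12.56 in Gnaq/Gna11 cells, and 12.33 to 12.48 on the 6 arrays lacking Gna12. The second read 11.45, 11.40 and 11.36 in Gna11 cells, 11.57, 11.51 and 11.46 with Gnaq deleted too, and 11.28 to 11.41 on the other 6. In both, every Gnaq/Gna11 array lay above the other 9, a pattern of 2.18% of all probe sets, and the other 3 groups overlapped. The differences from Gna11 cells, 0.24 ± 0.0654 and 0.11 ± 0.0640, did not pass (limma adjusted p = 0.135 and 0.490). The probe sets of Ctsc, the gene of the enzyme that activates granule serine proteases, disagreed. The brightest read 7.25, 6.42 and 7.15 in Gna11 and 7.37, 7.50 and 7.51 in Gnaq/Gna11 cells. The other 2 overlapped between the groups, with differences of -0.35 and -0.12, and none of the 3 passed.

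**Figure D2:**
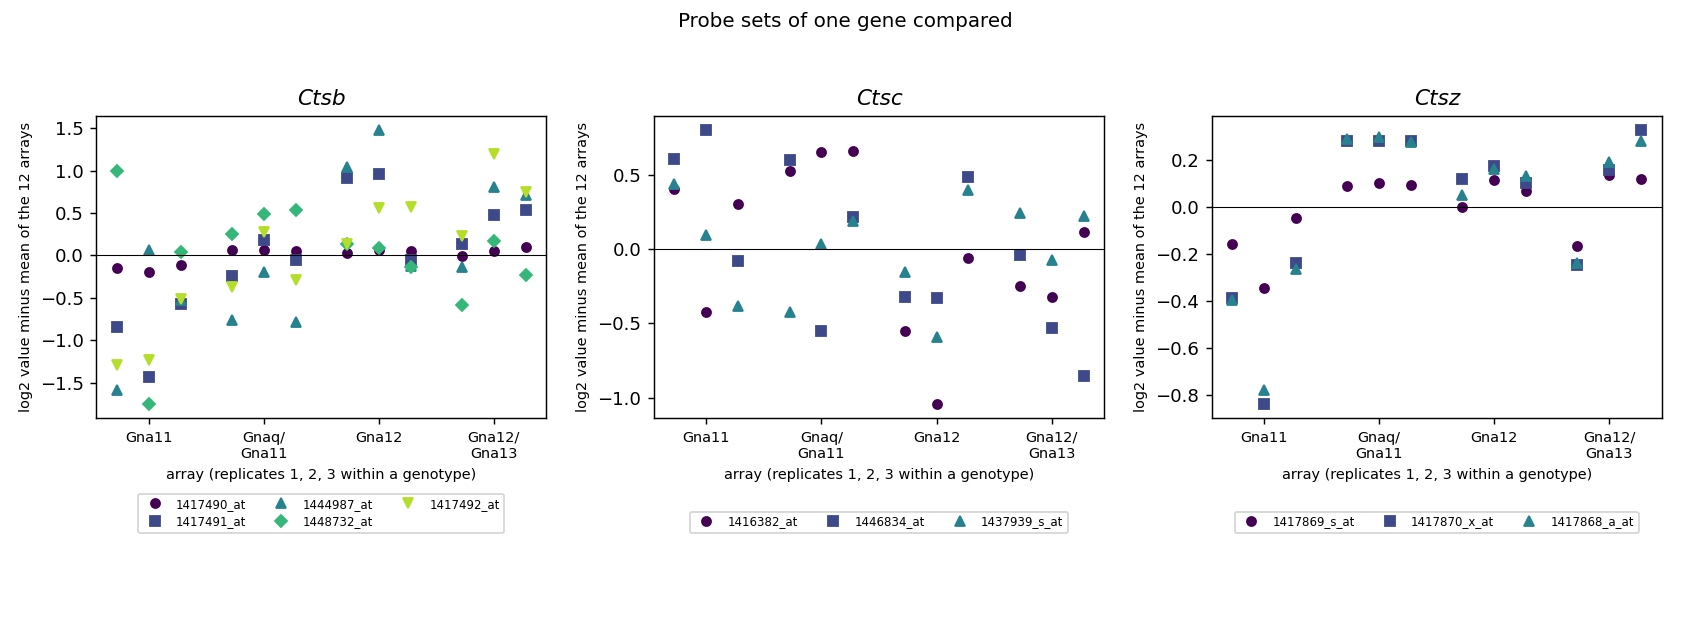
Log2 value minus the mean of the 12 arrays for each probe set of Ctsb (5), Ctsc (3) and Ctsz (3), with arrays along the x axis by genotype and a symbol for each probe set. The 3 Ctsz probe sets vary together with different amplitudes, while those of Ctsc scatter and 1448732_at of Ctsb spans 5.92 to 8.67 within the Gna11 group.

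Both inhibitor genes rose as well. Cstb, by its brighter probe set, read 8.22, 8.14 and 8.13 in Gna11 and 9.34, 9.50 and 9.30 in Gnaq/Gna11 cells. It read 9.03, 9.82 and 9.90 in Gna12 and 9.81, 10.07 and 10.30 in Gna12/Gna13 cells. The Gna11 arrays lay within 0.1 of one another and well below the rest. Cstb rose by 1.22 ± 0.219 (2.33-fold, limma adjusted p = 0.0325), with a difference of 1.16 to 1.26 over 21 alternatives, of which it passed 8. Its second probe set went the same way by 0.79 ± 0.240 (adjusted p = 0.181). Cst3 read 12.43, 12.22 and 12.19 in Gna11 and 12.80, 12.67 and 12.74 in Gnaq/Gna11 cells. In Gna12 cells it read 12.59, 12.46 and 12.39, and in Gna12/Gna13 cells 12.36, 12.50 and 12.68. Cst3 rose by 0.46 ± 0.0890 (1.37-fold, limma adjusted p = 0.0443), and the Gna12 and Gna12/Gna13 arrays overlapped the Gna11 arrays.

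The 6 calls of this comparison were close to the threshold. With the leukocyte measure, the Gapdh difference or Eif2s3y as a covariate none of the 21 passed, where 12, 6 and 194 of all 45037 did. Leaving out arrays gave 1 without Gna11 replicate 1, 0 without Gna11 replicate 2 or any Gnaq/Gna11 array, and 2 without Gna12 replicate 1 or 3. It gave 0 without Gna12 or Gna12/Gna13 replicate 2, 6 without Gna11 replicate 3 and 7 without Gna12/Gna13 replicate 1 or 3. Of all probe sets 83 to 446 passed with 1 array left out, against 342 with none left out. All 6 differences stayed above 0 under these alternatives. The part that leukocyte content and RNA shortening have in these differences was not tested.

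**Figure D3:**
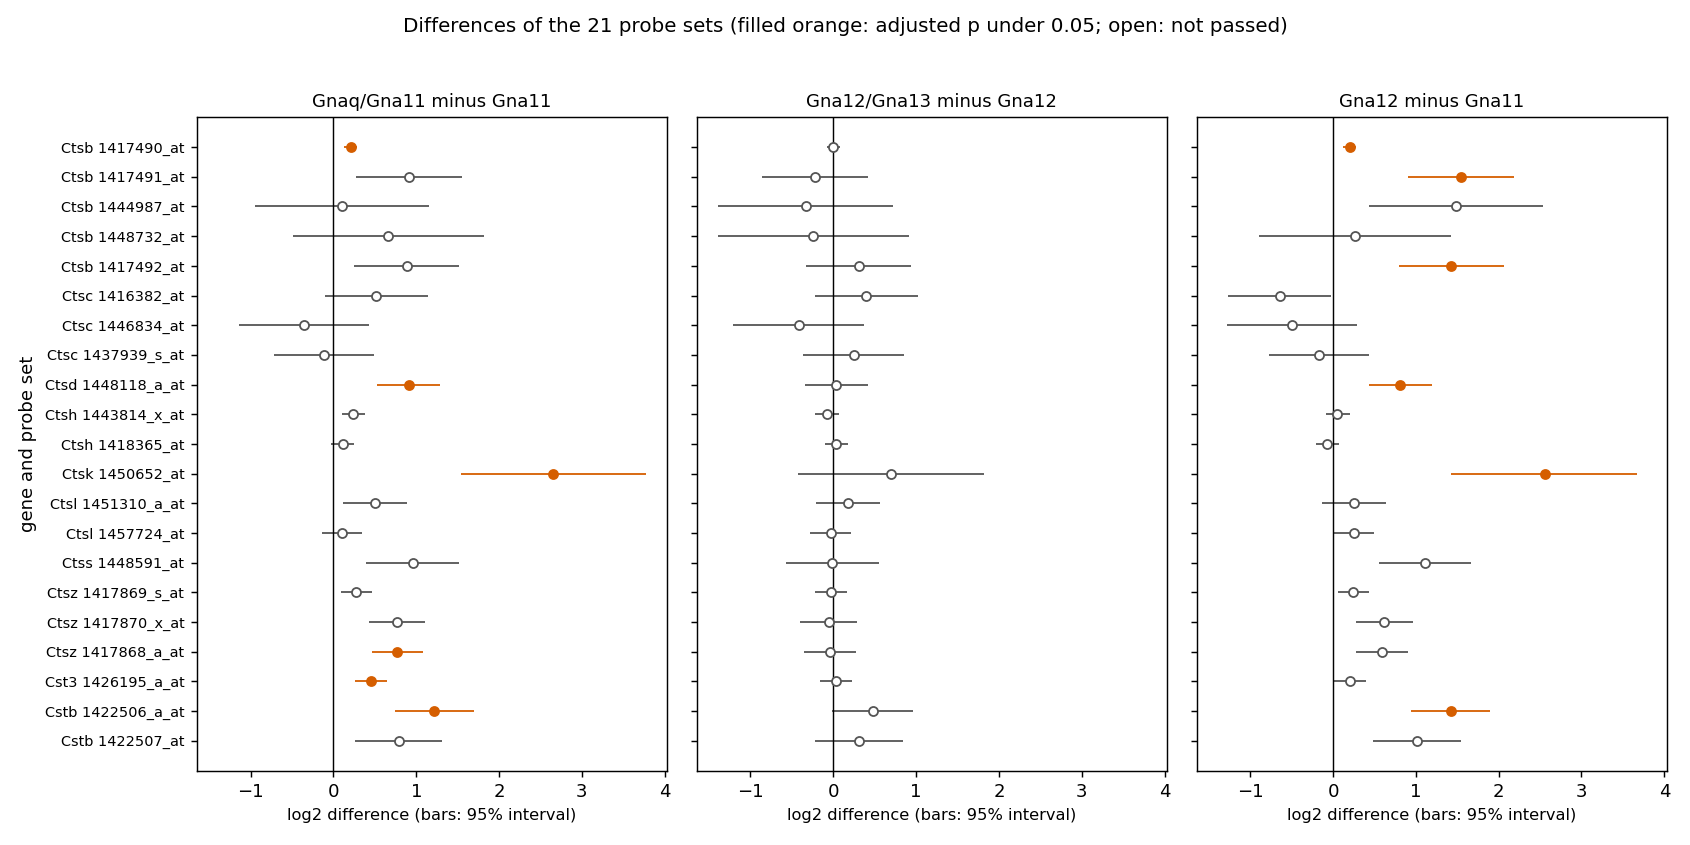
Log2 difference of each of the 21 probe sets in 3 comparisons, with 95% intervals of the limma model, filled where the adjusted p was under 0.05. In Gnaq/Gna11 minus Gna11 and in Gna12 minus Gna11, 6 points each are filled and all lie above 0, and in Gna12/Gna13 minus Gna12 none is filled. The first and the third panel share the Gna11 arrays.

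Loss of Gna13 in addition to Gna12 left no member called. None of the 21 probe sets passed between Gna12/Gna13 and Gna12 cells in limma. An unadjusted p under 0.05 was found in 0 of them, against 1889 of all 45037. In 0 of them did the groups fall apart, where the background was 5.44% higher and 5.39% lower. Over all probe sets 0% passed. The median difference was 0.00 over the 21 and -0.01 over all probe sets. Intervals were narrow for some members and wide for others. For Ctsd the difference was 0.04 with a 95% interval of -0.34 to 0.42, for Cst3 0.04 with -0.16 to 0.23, and for Ctsk 0.70 with -0.42 to 1.82. Cstb had the smallest p, with 0.48 ± 0.219 and an interval of -0.01 to 0.96 (limma unadjusted p = 0.0522, adjusted p = 1). Gna12/Gna13 replicate 1 was the lowest of its group for Ctsk (7.41, against 9.22 and 9.27), Ctsd (12.16), Ctss (11.76), Cst3 (12.36) and the Ctsz probe sets, and its pan-leukocyte mean, 8.540, was the lowest of its group too. In Gna12 cells replicate 3 had the lowest pan-leukocyte mean, 8.992. It was the highest of its group for Ctsk (8.41) and Ctsd (12.61), and the lowest for Cst3 (12.39), Ctsz 1417870_x_at (12.08) and Ctsb 1417491_at (9.23).

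Whether the second deletion had a different effect in the Gna11 and Gna12 lines was tested by the difference of the differences. None of the 21 probe sets passed (smallest limma adjusted p = 0.231), where 0.0200% of all probe sets did. An unadjusted p under 0.05 was found in 11 of the 21 and in 3880 of all 45037. The sign was positive in 20 of the 21 and in 20612 of all 45037. The Ctsk difference was larger in the line lacking Gna11 by 1.96 ± 0.721, that of Ctsd by 0.87 ± 0.244 and that of Cstb by 0.74 ± 0.310 (limma adjusted p = 0.446, 0.289 and 0.518). The rise in Gnaq/Gna11 cells is thus not shown to differ from the Gna12/Gna13 minus Gna12 difference.

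The single knockouts were compared next. Gna12 cells had higher levels than Gna11 cells in 6 of the 21 probe sets, 3 of Ctsb and 1 each of Ctsd, Ctsk and Cstb, and no probe set was lower by the test. Over all probe sets 0.844% passed as higher and 0.457% as lower, and the median difference was 0.27 over the 21 and -0.06 over all. The groups did not overlap in 12 of the 21, with Gna12 higher, and in none with Gna12 lower, against 8.97% and 14.4% of all. Of the 22519 probe sets at or above the median level 341 passed as higher and 158 as lower, against 6 and 0 of 20 members. The groups were apart with Gna12 higher in 3218 and lower in 3045 of them, against 11 and 0 of the 20. This comparison uses the same Gna11 arrays as the first, so the lists of genes that passed are not independent of each other. The position number in the labels is 2 for all Gna11 and Gnaq/Gna11 arrays and 4 for the others, so it cannot be told apart from genotype here.

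Cstb led by p, with 1.42 ± 0.219 (2.68-fold, limma adjusted p = 0.0179), and passed 17 of 21 alternatives. Ctsk differed by 2.55 ± 0.510 (5.87-fold, adjusted p = 0.0424) and Ctsd by 0.81 ± 0.173 (1.75-fold, adjusted p = 0.0498). Of the Ctsb probe sets, 1417491_at differed by 1.55 ± 0.291, 1417492_at by 1.43 ± 0.288 and 1417490_at by 0.20 ± 0.0371 (limma adjusted p = 0.0355, 0.0430 and 0.0343). Thus the same gene gave a 2.93-fold and a 1.15-fold difference, the smaller in the brightest probe set. Ctss at 1.11 ± 0.256 and the Ctsz probe sets at 0.24 to 0.62 were higher on every Gna12 array without passing. The 3 Ctsc probe sets were at -0.65, -0.50 and -0.17, none of which passed. The Ctsh values were 0.05 and -0.07.

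With the leukocyte measure or the Gapdh difference as a covariate 0 of all 45037 probe sets passed in this comparison, and so none of the 21. In the former, Ctsk was at 0.71, Ctsd at 0.09, Cstb at 1.37, and the Ctsb probe sets 1417490_at, 1417491_at and 1417492_at at 0.09, 0.26 and 0.60, with adjusted p from 0.930 to 0.999. Leaving out arrays gave 10 calls without Gna11 replicate 3, 8 without Gna12/Gna13 replicate 1 and 0 without Gna12 replicate 2. There was 1 without Gna11 replicate 1 or 2, Gna12 replicate 1 or Gnaq/Gna11 replicate 3, and 2 without each of the other 5 arrays. With 1 array left out, 38 to 1031 of all probe sets passed, against 586 with none left out.

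**Figure D4:**
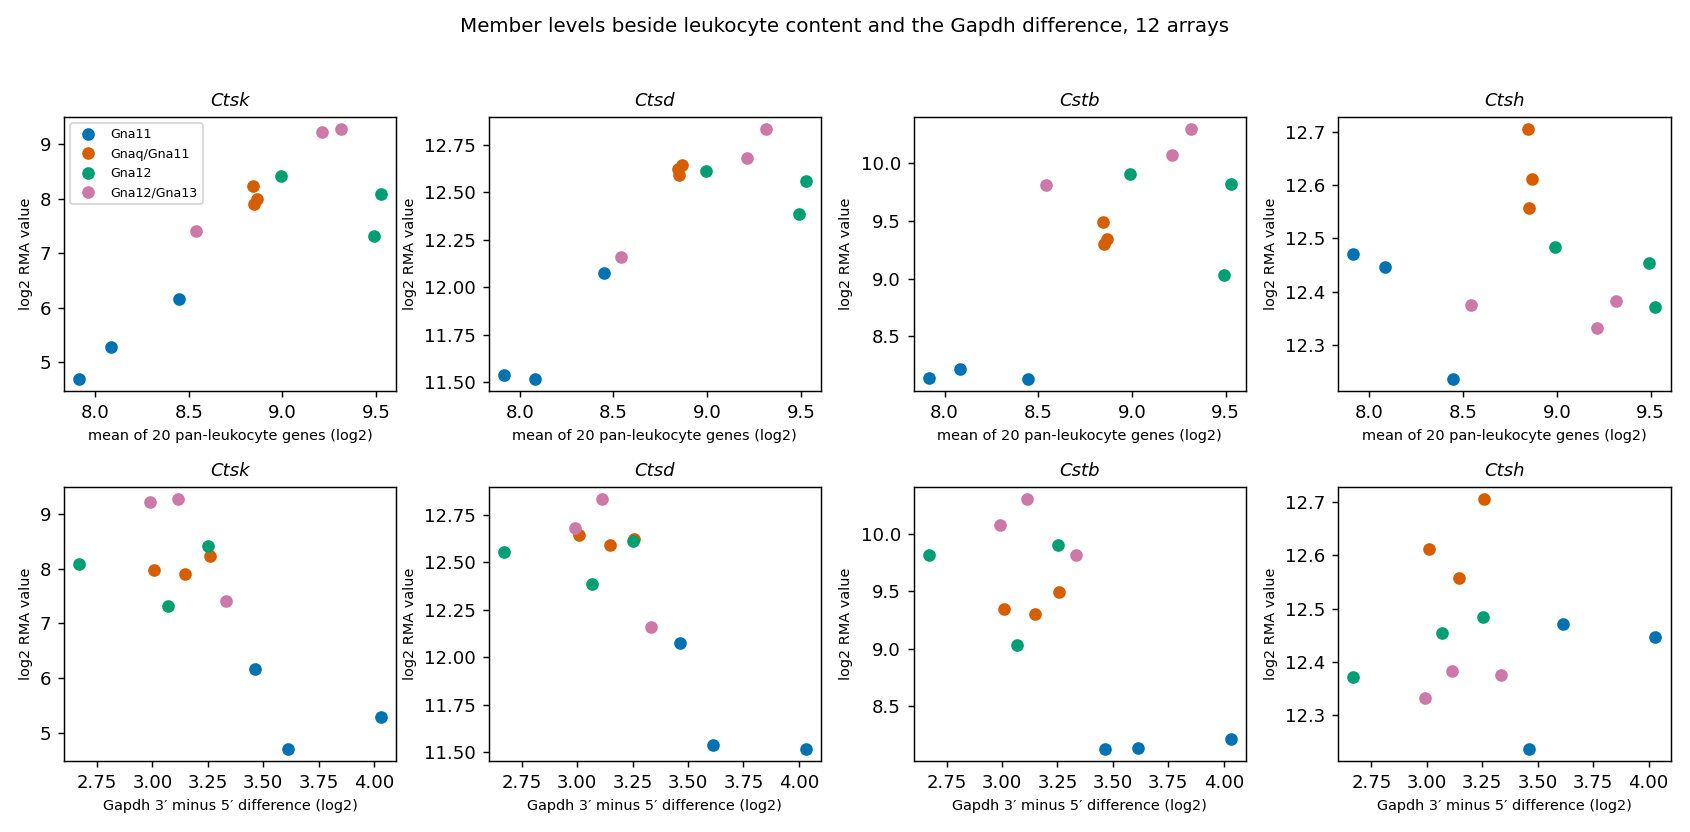
Log2 values of Ctsk, Ctsd, Cstb and Ctsh on the 12 arrays (y axes) against the mean of 20 pan-leukocyte genes (top row, x axis, log2) and the Gapdh gap, 3' minus 5' (bottom row, x axis, log2), with a colour for each genotype. The 3 Gna11 arrays have the lowest values of Ctsk, Ctsd and Cstb and also the lowest pan-leukocyte means and the largest Gapdh differences, while Ctsh is highest on the 3 Gnaq/Gna11 arrays, whose pan-leukocyte means are 8.846 to 8.867.

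Between the double knockouts no member passed, although 2.87% of all probe sets did. Ctsh was lower in Gna12/Gna13 than in Gnaq/Gna11 cells by -0.26 ± 0.0654 in its brighter probe set (limma adjusted p = 0.0577) and by -0.15 ± 0.0640 in the other. Neither overlapped between the groups, and the brightest Ctsc probe set and 1448732_at of Ctsb were likewise lower without overlap, making 4 of 21 against 13.7% of all. Cstb at 0.68 ± 0.219 and 1444987_at of Ctsb at 1.04 ± 0.478 were higher without overlap, 2 of 21 against 11.3%. In this pair Ctsd (-0.06), Ctss (0.15), Ctsl (-0.08) and Ctsk (0.60 ± 0.510) overlapped.

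The order of the levels sums up the members. For Ctsk, Ctsd, Ctss, Cstb and 3 Ctsb probe sets the Gna11 group was lowest and apart from its neighbour in the order, and no other neighbours were apart. In Ctsz 1417868_a_at both ends were apart, with Gna11 lowest and Gnaq/Gna11 highest. In Ctsh and the brightest Ctsc probe set the Gnaq/Gna11 group was highest and apart, and the other 3 groups overlapped. In 1417870_x_at of Ctsz and 1448732_at of Ctsb only the highest group, Gnaq/Gna11, was apart from its neighbour. In 1444987_at of Ctsb the Gnaq/Gna11 and Gna12/Gna13 groups, in the middle of the order, were apart. For Cst3, both Ctsl probe sets, the brightest of Ctsz and the other 2 of Ctsc no neighbours in the order were apart.

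Other genes of the pathway were taken from lists, each gene by its brightest probe set. Of 6 other cathepsin genes none passed between Gnaq/Gna11 and Gna11 cells, with a median difference of 0.32. Ctsa, the serine carboxypeptidase that protects other lysosomal enzymes, was at 0.81, and Ctsw, of lymphocytes, at 1.84, neither of which passed. In the pair of double knockouts Ctso was higher in Gna12/Gna13 cells by 0.73 ± 0.141 (limma adjusted p = 0.0215). Of 6 other inhibitor genes measured, Kng1, which encodes kininogen, a precursor of bradykinin that also inhibits cysteine proteases, rose by 2.54 ± 0.275 (limma adjusted p = 0.00440). Kng1 was lower in Gna12/Gna13 than in Gnaq/Gna11 cells by -2.66 ± 0.275, with 8.05 ± 0.610 in Gnaq/Gna11 cells and 5.32 to 5.51 as the means of the other 3 groups.

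Of 7 other lysosomal peptidase genes Dpp7, a dipeptidyl peptidase gene, rose by 1.69 ± 0.224 in Gnaq/Gna11 over Gna11 cells (limma adjusted p = 0.0117) and was higher by 1.45 ± 0.224 in Gna12 than in Gna11 cells (adjusted p = 0.0179). Napsa, which encodes the aspartic protease of type II cells that works beside cathepsin H on surfactant protein B, was lower in Gna12/Gna13 than in Gnaq/Gna11 cells by -0.75 ± 0.150 (adjusted p = 0.0242). Sftpb, the gene of that surfactant protein, was lower there by -0.54 ± 0.0807 (adjusted p = 0.00741), as 1 of 4 surfactant genes, none of which passed in the double against single comparisons. In that same pair of groups 4 of the 9 type II markers were lower and Ctsh did not pass.

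Of 15 lysosomal glycan and lipid hydrolase genes 1 passed in Gnaq/Gna11 over Gna11 cells, Hexa at 0.65 ± 0.112, with a list median of 0.84. Between Gna12 and Gna11 cells 3 were higher, Gla at 1.84 ± 0.391, Lipa at 1.40 ± 0.279 and Hexa at 0.59 ± 0.112, with a median of 0.66. Gaa was lower in Gna12/Gna13 than in Gnaq/Gna11 cells by -0.55 ± 0.122. Among 12 sorting and membrane genes M6pr alone passed, the receptor gene that carries enzymes tagged with mannose 6-phosphate to lysosomes, at 1.38 ± 0.279 in Gna12 over Gna11 cells. None of 9 proton pump genes passed in any comparison, with medians of 0.36 in Gnaq/Gna11 over Gna11 cells and 0.21 in Gna12 over Gna11 cells. Among 6 MHC class II genes, whose invariant chain is a substrate of cathepsin S, 4 rose in Gnaq/Gna11 over Gna11 cells. H2-DMa rose by 1.54 ± 0.230, H2-Eb1 by 1.12 ± 0.176, H2-Ab1 by 0.67 ± 0.105 and the invariant chain gene Cd74 by 0.53 ± 0.0755. In Gna12 over Gna11 cells H2-DMa, H2-Ab1 and Cd74 were higher, by 1.60, 0.82 and 0.42. Of 7 serine protease genes whose products cathepsin C activates, none passed in Gnaq/Gna11 over Gna11 cells (median -0.33) or in Gna12 over Gna11 cells (median -0.36), and the mast cell chymase gene Cma1 was lower in Gna12/Gna13 than in Gnaq/Gna11 cells by -3.29 ± 0.639. Of 6 collagen and elastin genes, Col3a1 and Col1a1 rose by 2.10 ± 0.338 and 1.57 ± 0.264 in Gnaq/Gna11 over Gna11 cells, and were lower in Gna12/Gna13 than in Gnaq/Gna11 cells by -2.26 and -2.25. None of the 10 lists had a member that passed between Gna12/Gna13 and Gna12 cells.

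Marker lists of other cells gave these values. In Gnaq/Gna11 over Gna11 cells 19 of 20 pan-leukocyte and 13 of 14 macrophage markers had a positive difference, with medians of 0.64 and 0.75, and none passed. In Gna12 over Gna11 cells 20 of 20 and 13 of 14 were positive, with medians of 1.33 and 1.45, and 6 pan-leukocyte markers passed. The macrophage mean spanned 8.541 to 9.226 with Gna11 deleted and 10.03 to 10.10 with both Gnaq and Gna11 deleted, and from 9.290 to 10.58 over the other 6 arrays. The lysosomal macrophage gene Cd68 spanned 9.42 to 10.56 in the Gna11 group and 11.63 to 11.74 in the Gnaq/Gna11 group. Of the 6 osteoclast markers, listed because cathepsin K is typical of that cell, 4 were positive and none passed in Gnaq/Gna11 over Gna11 cells (median 0.10). In Gna12 over Gna11 cells 6 were positive (median 0.94), and Acp5 and Dcstamp passed, at 1.04 ± 0.184 and 1.88 ± 0.339. Dcstamp, a gene of osteoclast fusion, had means of 4.76 in Gna11, 6.16 in Gnaq/Gna11, 6.64 in Gna12 and 6.63 in Gna12/Gna13 cells. Acp5 was at 10.97 to 12.43 over the arrays and Calcr, the calcitonin receptor gene, at 3.64 to 3.93, below the median level. Of 5 dendritic cell markers 3 were positive in Gnaq/Gna11 over Gna11 cells (median 0.30) and 2 in Gna12 over Gna11 cells (median 0.00). Only 2 of the 5 were at or above the median level. Ccr7, a chemokine receptor gene, alone passed, as higher in both comparisons, with means of 6.37 in Gna11, 9.56 in Gnaq/Gna11 and 8.63 in Gna12 cells. Of 8 fibroblast markers 5 were positive in Gnaq/Gna11 over Gna11 cells (median 0.14), and 2 passed, the collagen genes Col1a1 and Col3a1 given above. In Gna12 over Gna11 cells 1 was positive (median -0.16) and none passed. No marker of neutrophils (4), lymphocytes (5) or endothelium (5) passed in these comparisons. Their medians were -0.33, 0.24 and -0.11 in Gnaq/Gna11 over Gna11 cells and 2.09, -0.19 and -0.05 in Gna12 over Gna11 cells. Of 9 type II markers 6 were positive in Gnaq/Gna11 over Gna11 cells (median 0.11) and 2 in Gna12 over Gna11 cells (median -0.38), and of 6 epithelial markers 0 (median -0.09) and 3 (median 0.00), none of which passed. The part of these cell types in the cathepsin values was not tested.

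The 3 genes most like each member over the 12 arrays were sought among 11433 others, as a description by Pearson correlation. Ctsb was most like Dpp7 (0.975), Ctsd (0.969) and Wfdc17 (0.969). Ctsd was most like Ccl6 (0.981), Tmem198b (0.980) and Psap (0.978), which encodes the lysosomal protein prosaposin. For Ctsk these were Tmem198b (0.977), Cox5a (0.973) and Ctsd (0.962), so the aspartic protease gene was among the nearest to both Ctsb and Ctsk. Ctss was most like the lysosomal lipase gene Lipa (0.974), the leukocyte gene Lcp1 (0.974) and the proton pump gene Atp6v1e1 (0.972). Ctsz was most like Lgals1 (0.980), Cd68 (0.978) and Cd84 (0.966). Members with another order had other partners. Ctsc had S1pr2 (0.970), Atp11a (0.956) and Dynlt3 (0.954), and Ctsh had Tmem213 (0.942), Gfpt1 (0.909) and Guca2a (0.896). Ctsl had Slc39a10 (0.911), Atp6v0a2 (0.902) and Rap2a (0.891). Of the inhibitors, Cst3 had Gfus (0.956), Adssl1 (0.936) and Tnni2 (0.932), and Cstb had Akr1b8 (0.959), Ctsk (0.932) and Cd9 (0.932). All these correlations share the 4 genotype groups, so a gene that is low in Gna11 cells scores high with others that are.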

How the data were processed

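The deposited values are log2 expression summaries per probe set made by the authors with RMA, per the submitters' processing notes, which name the tool alone. RMA as usually run corrects background, normalizes between arrays and summarises probes. The sources used here give no software version, annotation or base of the logarithm. The base was read as 2 from the range of 2.13 to 14.1. Array medians lay between 5.032 and 5.110. Of 45101 probe sets 64 were controls. Of the rest 34945 had 1 gene, 932 several and 9160 none in the platform annotation, and symbols were updated through RefSeq (GRCm38.p6) for 34741. The number of arrays limits the precision.

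With limma 3.58.1 in R 4.3.3, the group means of all 12 arrays and 45037 probe sets were estimated together (prior variance following intensity; 8 residual degrees of freedom and 3.16 prior ones) and compared two-sided, with Benjamini-Hochberg adjustment over all probe sets of each of 5 comparisons. Tested on simulated data of 45037 probe sets for Gnaq/Gna11 minus Gna11, it recovered 63% of changes of 1 and 82% of changes of 2 log2 units. Every member probe set was named. From each other list up to 4 genes that passed were named by size, and Ctsa, Ctsw, Cd68, Acp5, Calcr, Dcstamp and Ccr7 after their values were seen. For each member, the 3 most correlated genes were found. Members and lists were chosen with earlier results of these data known. Alternatives were the test unit, a filter on low values, the arrays fitted, array weights, the trend, a replicate block, 3 covariates and leaving out each array. Replicate numbers were not taken to pair the samples.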

Additional observations from a re-analysis of the deposited data

How the results depend on the processing

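Counts below are of member probe sets that passed in limma, 6 in Gnaq/Gna11 minus Gna11, 6 in Gna12 minus Gna11 and 0 in the others. For Gnaq/Gna11 minus Gna11 there were 0 with the pan-leukocyte mean, the Gapdh difference or Eif2s3y as a covariate, with array weights or with only the arrays compared, 1 with no intensity trend, and 0 to 7 when an array was left out. For Gna12 minus Gna11 there were 0 with the pan-leukocyte mean or the Gapdh difference or with only the arrays compared, 3 with array weights, 10 among probe sets at or above the median level, and 0 to 10 when an array was left out. Between the double knockouts there was 1 with 1 probe set per gene, among probe sets at or above the median level, with array weights, or with Eif2s3y or the Gapdh difference as a covariate, and 0 to 1 when an array was left out. In Gna12/Gna13 minus Gna12 and in the difference of differences the count was 0 under every alternative run. With the replicate block the counts were 4, 5, 0, 0 and 0 for Gnaq/Gna11 minus Gna11, Gna12 minus Gna11, the double knockouts, Gna12/Gna13 minus Gna12 and the difference of differences. Deviations of same-numbered arrays (1, 2 and 3) correlated at 0.00399, 0.0308 and 0.0548 for Gna11 with Gnaq/Gna11, at -0.0106, 0.198 and 0.158 for Gna12 with Gna12/Gna13, at 0.0202, 0.165 and 0.114 for Gna11 with Gna12 and at 0.00373, 0.0121 and 0.0240 for the double knockouts. No pair of groups had all 3 above 0.1, so the numbers were not taken as pairs, although Eif2s3y was low on replicate 2 in each of Gna11, Gna12 and Gna12/Gna13. No probe set that passed changed sign under an alternative. Over all probe sets the counts were 342 (6 to 514 over the alternatives) in Gnaq/Gna11 minus Gna11, 586 (0 to 1038) in Gna12 minus Gna11, 1294 (328 to 2062) between the double knockouts, 9 (1 to 33) for the difference of differences and 0 (0 to 4) in Gna12/Gna13 minus Gna12. With the pan-leukocyte mean or the Gapdh difference as a covariate the counts over all were 12 and 6 in Gnaq/Gna11 minus Gna11. In Gna12 minus Gna11 they were 0 with either. The cause of these changes in count was not tested.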
